A study of Mus musculus with 18 samples.

Results

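The Dlk1-Dio3 domain is an imprinted gene cluster on mouse chromosome 12, and it was examined here as a stretch of open chromatin in cortical neurons. Its members are the protein-coding genes Dlk1, Rtl1 and Dio3 and the long noncoding RNA (lncRNA) genes Meg3, Rian and Mirg. Every consensus peak with a base between 50 kb before Dlk1 and 50 kb past Dio3 was taken, chr12:109402485-110331097 of build mm10, with gene ends from RefSeq GRCm38.p6. That gave 178 of the 211682 peaks of the series, in 928.6 kb. The domain and the dense window at Rtl1 were chosen by the number of peaks they hold in this same list, so their peak counts are a description with no test. At the edges, the outermost peaks taken lay 49.8 kb before Dlk1 and 30.2 kb past Dio3, and the nearest peaks not taken lay 51.0 kb before Dlk1 and 92.3 kb past Dio3.

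Chromatin accessibility was measured by ATAC-seq, an assay in which the Tn5 transposase inserts adapters into open DNA, in primary cortical neurons from CD1 mouse embryos at E14.5 to 15. All cultures received the mitotic inhibitor cytosine arabinoside at 2 µM, were transduced on day 6 with lentivirus for short hairpin RNAs (shRNAs), and were harvested on day 11; reads were pairs of 50 bp. The 18 samples form the groups shOpa1_shATF4 with 5 samples, shCtrl_shATF4 with 3, shOpa1_shScrambled with 5 and shCtrl_shScrambled with 5, so every group carried a pair of shRNAs and the control is no untreated culture. Opa1 is a GTPase needed for fusion of the inner mitochondrial membrane, ATF4 is a transcription factor of the integrated stress response, and the stated aim was to find accessibility changes that need ATF4, in normal cultures and under mitochondrial stress caused by loss of Opa1.

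The file analysed holds 1 consensus list with no column for a sample or group. No value below can therefore be assigned to a knockdown, none has a replicate error, and the depth is unknown. Which samples entered the list was not given in the sources used here, and a list of positions cannot tell the maternal and paternal chromosomes apart. A peak at an end, within 1000 bp, was found for 8 of 8 neuronal markers listed for this check, 2 of 4 astrocyte, 4 of 5 oligodendrocyte lineage and 2 of 4 microglia markers, beside 70.4% of all protein-coding genes. Such a peak does not identify a cell type.

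In an imprinted domain the allele used depends on the parent it came from. Here Dlk1, Rtl1 and Dio3 are expressed mainly from the paternal chromosome, and Meg3, Rian and Mirg from the maternal one, under a differentially methylated region between Dlk1 and Meg3. The maternally expressed transcripts give rise to many small RNAs: Rian hosts C/D box small nucleolar RNAs (snoRNAs), and a large microRNA cluster leads into Mirg. That cluster is known in neurons for activity-dependent transcription through Mef2 and for effects on dendrites.

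The bases before the start sites of 5 members are shown because the peaks divide them: 4 start sites lie under a peak and that of Rian does not. Each run is the 250 bases before the RefSeq start site, plus strand, from RefSeq GRCm38.p6, at chr12:109452573-109452822 for Dlk1, chr12:109540746-109540995 for Meg3, chr12:109603695-109603944 for Rian, chr12:109734731-109734980 for Mirg and chr12:110278980-110279229 for Dio3. Rtl1 has no entry. Capitals mark matches, on either strand, to the cAMP response element TGACGTCA, its short form TGACG, the CCAAT box, the GC box GGGCGG and TATAAA.
Dlk1: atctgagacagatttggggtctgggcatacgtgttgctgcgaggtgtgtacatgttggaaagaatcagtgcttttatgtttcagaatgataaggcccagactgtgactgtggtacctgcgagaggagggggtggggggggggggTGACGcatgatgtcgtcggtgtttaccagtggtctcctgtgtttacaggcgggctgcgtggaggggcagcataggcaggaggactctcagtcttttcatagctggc
Meg3: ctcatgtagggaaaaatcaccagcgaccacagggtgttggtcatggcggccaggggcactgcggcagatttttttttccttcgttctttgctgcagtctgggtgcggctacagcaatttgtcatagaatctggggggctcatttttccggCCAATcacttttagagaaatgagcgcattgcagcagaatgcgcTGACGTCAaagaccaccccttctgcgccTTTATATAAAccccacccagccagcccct
Rian: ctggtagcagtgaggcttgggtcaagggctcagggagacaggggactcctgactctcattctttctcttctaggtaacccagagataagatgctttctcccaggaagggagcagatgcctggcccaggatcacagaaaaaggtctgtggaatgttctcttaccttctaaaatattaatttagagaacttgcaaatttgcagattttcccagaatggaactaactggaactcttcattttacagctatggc
Mirg: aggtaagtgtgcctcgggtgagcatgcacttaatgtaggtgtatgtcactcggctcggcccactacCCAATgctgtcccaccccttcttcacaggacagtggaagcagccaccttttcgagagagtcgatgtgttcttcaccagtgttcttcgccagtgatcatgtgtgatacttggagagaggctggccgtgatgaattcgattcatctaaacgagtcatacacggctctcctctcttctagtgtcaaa
Dio3: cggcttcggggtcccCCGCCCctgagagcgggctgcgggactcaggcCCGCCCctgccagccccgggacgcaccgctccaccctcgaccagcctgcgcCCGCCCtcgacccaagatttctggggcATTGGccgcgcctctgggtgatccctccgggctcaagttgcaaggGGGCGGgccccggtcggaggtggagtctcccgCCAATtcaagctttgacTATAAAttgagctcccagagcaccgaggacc

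The mature microRNAs below are those whose hairpins the peak map turns on. Listed are the Mir379 cluster start with partners that share a seed, microRNAs in the span of Rtl1, and miR-134 at the Mirg start. They were chosen after the peaks had been seen. Sequences are from RefSeq GRCm38.p6, 5′ to 3′, with the seed (bases 2 to 8), which pairs with target RNAs, in capitals.
miR-379-5p: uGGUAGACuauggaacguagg
miR-1193-5p: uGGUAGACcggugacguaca
miR-379-3p: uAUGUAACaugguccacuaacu
miR-411-3p: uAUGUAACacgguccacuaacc
miR-299a-3p: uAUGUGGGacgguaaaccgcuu
miR-299b-3p: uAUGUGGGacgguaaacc
miR-673-5p: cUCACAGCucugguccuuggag
miR-431-5p: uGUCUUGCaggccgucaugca
miR-127-3p: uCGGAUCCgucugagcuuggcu
miR-136-5p: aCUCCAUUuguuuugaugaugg
miR-134-5p: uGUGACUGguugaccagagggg
miR-379-3p and miR-411-3p share the seed AUGUAAC, miR-299a-3p and miR-299b-3p share AUGUGGG, and miR-379-5p and miR-1193-5p share GGUAGAC. All 61 microRNA genes of the domain matched a mature sequence. These gave 113 mature names, 1 of which, miR-3070-5p, came from 2 genes, and 104 distinct seeds. Of these seeds, 9 were shared, each by 2 differently named mature forms.

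Peaks were unevenly spread along the domain. The stretch from the start of Meg3 to the end of Mirg held 92 peaks in 208.5 kb, or 4.41 per 10 kb, 5.10 times the density of all autosomes (0.866 per 10 kb). It held 51.7% of the domain's peaks. The 529.8 kb from Mirg to Dio3 held 54 peaks, 1.02 per 10 kb or 1.18 times the autosomes. The 77.7 kb from Dlk1 to Meg3 held 11, 1.42 per 10 kb or 1.64 times the autosomes. Peaks were placed by midpoint, and these 11 include the peak over the Meg3 start. Density was thus highest from Meg3 to Mirg, and the long stretch to Dio3 was near that of the autosomes when all peaks were counted. With peaks of 500 bp or more, a count chosen for the stretches after seeing the data, the stretch to Dio3 had 0.227 per 10 kb against 0.332 on the autosomes, 0.682 times, and Meg3 to Mirg had 4.91 times the autosomes. The widest gap without a peak, 54.3 kb, opened 23.3 kb past Mirg, after a peak that ended at 109772797.

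**Figure D1:**
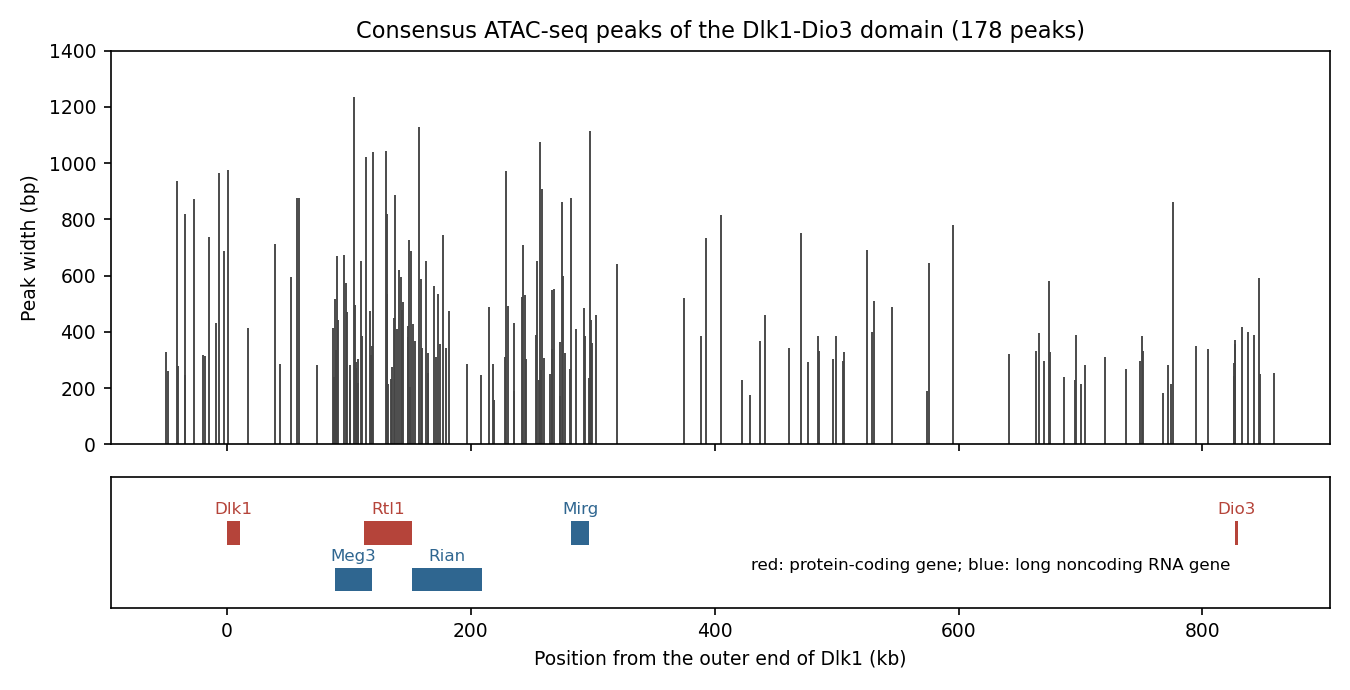
Width in bp of each of the 178 peaks (vertical lines) against position in kb from the outer end of Dlk1, with the 6 members below (red, protein-coding; blue, lncRNA; Dio3 drawn at least 2 kb wide). Lines crowd between the start of Meg3 and the end of Mirg, and thin out on the way to Dio3.

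As a whole the domain had 192 peaks per Mb, with 8.91% of its bases in peaks, against 85.4 per Mb and 4.41% on chromosome 12 and 86.6 per Mb and 4.48% over the autosomes. Its neighbours were dense as well. The 1 Mb past the domain held 188 peaks, with 9.75% of bases in peaks, and the 1 Mb before it held 134, with 7.83%. The median peak of the domain was 386 bp wide (quartiles 292 and 590 bp), against 425 bp in the series. It was 393.5 bp in the 1 Mb past the domain and 490.5 bp in the 1 Mb before it. The gap to the next peak was under 150 bp for 19.2% of neighbouring peaks in the domain and for 10.2% in the series. In the 1 Mb past the domain the share was 16.0%, and in the 1 Mb before it 13.5%. Closely spaced intervals are thus part of the domain's count, and whether density alone gives this share was not tested. With such peaks joined, an alternative chosen after seeing the data, the domain had 155 peaks per Mb against 77.8 on the autosomes.

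Among the lncRNA genes, all 3 members had a peak at an end, as did 56% of the 12637 lncRNA genes of the genome. Meg3, whose transcript is a candidate tumour suppressor, was the densest. Its 30.7 kb held 21 peaks by midpoint, 6.83 per 10 kb, and peaks covered 33.3% of it. By any overlap the count was 23, with the peaks over its start and its far end. Of the 5596 lncRNA genes of 10 kb or more, whose median density was 0.910 peaks per 10 kb, only Mir124-2hg, the host of a microRNA abundant in neurons, had more, with 8.87 per 10 kb. Mir124-2hg was named after its value was seen.

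A peak of 517 bp, chr12:109540702-109541218, lay over the Meg3 start site at 109540996. It reached 237 bases before and 272 bases past the cAMP response element printed above, which lies at bases -57 to -50 and is found in 1.79% of 32817 RefSeq promoter windows (250 bases before to 50 after a start). The same window held a CCAAT box (37.4% of windows) at -100 and overlapping TATAAA matches on both strands (13.6% of windows), the plus-strand match at -25. Peaks of 241 bp and 176 bp, 8 bp apart, lay at 109540008-109540248 and 109540257-109540432 before it. A further start site of Meg3, at 109545398, had no peak over it.

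Inside Meg3 stood the widest peak of the domain, chr12:109555742-109556976, 1235 bp wide and 14.7 kb past the start. The far end of Meg3 lay under a peak of 1039 bp, chr12:109571612-109572650, which also covered the hairpin of Mir673. Open intervals therefore marked both ends and the interior of this gene.

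Rian differed at its start. No peak lay over its start site at 109603945, and the nearest, chr12:109602655-109603341 and 687 bp wide, ended 604 bp before it. The next peak began 954 bp past the start, at 109604899, and was 428 bp wide. The start window had no base in a peak, no CG dinucleotide and none of the 8 motifs searched, which were those above with AP-1 TGANTCA, the C/EBP-ATF element TGATGNAA and the MEF2 site. Over its 57.8 kb Rian held 17 peaks, 2.94 per 10 kb with 13.7% of bases covered, and 317 of the 5596 long lncRNA genes had more per 10 kb. A further wide peak, chr12:109609723-109610852 with 1130 bp, lay 5.78 kb past the Rian start.

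Mirg, the last of the noncoding members, had its start site at 109734981 under a peak of 877 bp, chr12:109734167-109735043. The whole start window lay in that peak, with 10 CG dinucleotides and a CCAAT box at -184. Its 14478 bp held 4 peaks by midpoint, 2.76 per 10 kb with 10.9% of bases covered, and 392 long lncRNA genes had more per 10 kb. By any overlap the count was 5, with the peak over its start. At its far end a peak of 236 bp, chr12:109749156-109749391, lay 67 bp inside, and a peak of 1114 bp, chr12:109749647-109750760, stood just past it.

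**Figure D2:**
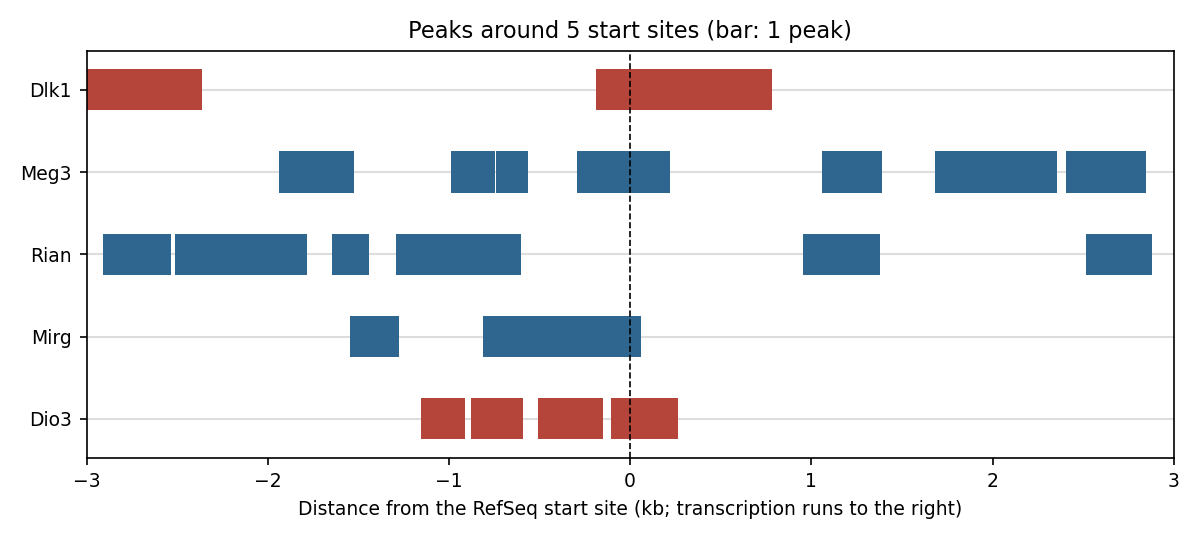
Peaks (bars) within 3 kb of the RefSeq start sites of Dlk1, Meg3, Rian, Mirg and Dio3, in kb from the start, with transcription to the right (red, protein-coding; blue, lncRNA). Bars cross the start line at 4 genes, and at Rian the nearest bar ends 604 bp before it.

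The 3 protein-coding members had a peak at an end, which 70.4% of 21774 protein-coding genes also had. At Dlk1, a transmembrane protein related to Notch ligands, the single peak of the gene was 975 bp wide, chr12:109452632-109453606, and covered the start site at 109452823. With 0.921 peaks per 10 kb over 10.9 kb, Dlk1 was near the median of 0.976 for protein-coding genes of 10 kb or more, and 7393 of these 13918 genes had more. Its start window was 80.3% in the peak and had 9 CG dinucleotides, and the only motif matched was TGACG, at -106, which 20.8% of windows hold. No peak lay within 1000 bp of its far end, the nearest being 6140 bp away.

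Before Dlk1 the 50 kb flank held 13 peaks, 2.60 per 10 kb, more than Dlk1 itself and than the stretch from Dlk1 to Meg3. In that stretch, 3 peaks lay over start sites of predicted noncoding genes: 877 bp at Gm34017 (chr12:109509200-109510076), and 282 bp and 241 bp at separate starts of Gm34081 (109526126-109526407 and 109540008-109540248). The differentially methylated region between Dlk1 and Meg3 is not in the gene table, and no peak was assigned to it.

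Rtl1 encodes a protein derived from a retrotransposon and is known for its need in the placenta. Its RefSeq ends, which join a curated and a predicted transcript, span 39.5 kb, chr12:109564900-109604418, and overlap the last 6.83 kb of Meg3 and the first 0.474 kb of Rian, so peaks in the overlap cannot be assigned to 1 gene. The span held 23 peaks, 5.82 per 10 kb with 32.1% of bases covered, and 6 of 13918 protein-coding genes had more per 10 kb. The part shared with neither neighbour held 19 of them by midpoint, 5.90 per 10 kb. These 19 include chr12:109571612-109572650, which also lay over the far end of Meg3. They also include chr12:109591848-109592258, over the lncRNA gene 6430411K18Rik. The widest in this part, chr12:109581978-109583022, had 1045 bp. The nearest peaks to the ends of the span were 1022 bp wide, 915 bp inside the low end, and 428 bp wide, 481 bp past the high end.

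Dio3 encodes the deiodinase that inactivates thyroid hormone. It is 1.87 kb long, and a peak of 372 bp, chr12:110279122-110279493, covered its start site. With 3 more peaks of 244, 291 and 358 bp, it formed a row of 4, each with a base within 1000 bp of the start, after 21.2 kb with no peak. The Dio3 window was 86.3% in peaks and had 25 CG dinucleotides, more than 81.6% of windows, with GC boxes (35.6% of windows), CCAAT boxes at -125 and -48 and TATAAA at -31. The start of the antisense gene Dio3os, 7 bp from the first of the row, had 53 CG dinucleotides, more than 99.5% of windows. No peak was found within 1000 bp of the far end of Dio3.

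Over all 29 distinct start sites listed in the domain, 7 lay under a peak, or 24.1%, against 48.7% of the 32817 start sites of the genome. Those with a peak were 6 of 12 up to and including Mirg and 1 of 17 past it, the last being Dio3. Of the 16 lncRNA genes, 9 had a peak at an end, a share of 56.25% beside 56% of all lncRNA genes. These were the 6 up to Mirg and 3 of 10 past it (Gm34719, 3110009F21Rik and Dio3os). Start sites of 1 gene are not independent, since Gm34081 alone has 5 of them with 2 under a peak. Among the 17 sites, Gm34667 has starts at 110023985, 110023986 and 110023992, and Gm34719 has close ones at 110086408 and 110086420. Gm40576 has starts at 110237391, 110237394, 110237395 and 110237400. Such sites are not separate places, so 1 of 17 and the 24.1% rest on fewer places than sites. Past Mirg, most annotated starts were without a peak.

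**Figure D3:**
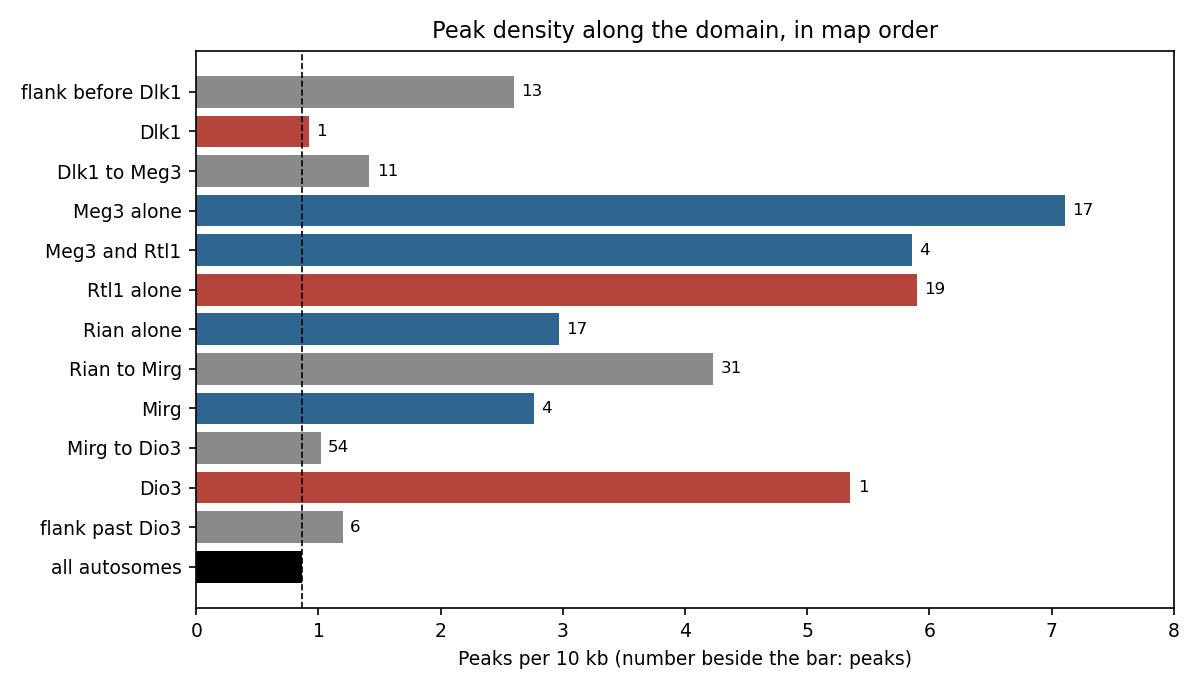
Peaks per 10 kb, by midpoint, in each segment of the domain in map order, with the number of peaks beside each bar, and in all autosomes (black bar and dashed line, 0.866). Segments over Meg3 and Rtl1 reach 5.86 to 7.11, and the stretch from Mirg to Dio3 stays at 1.02; the Dio3 bar rests on 1 peak in 1.87 kb, and the 0.474 kb shared by Rtl1 and Rian, with 0 peaks, is not drawn.

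The domain holds 61 microRNA genes. A peak lay over the hairpin of 25 of the 61 microRNA genes, or 41.0%, against 18.4% of the 1228 microRNA genes of the genome. The peak held the whole hairpin in 18 cases and part of it in 7. Since 18 peaks covered these 25 hairpins and 5 peaks covered 2 or more, the genes are not independent. The domain was chosen by its peak count, and from Meg3 to Mirg 21.4% of bases lay in peaks, against 4.48% on the autosomes. A share above that of the genome is thus no result separate from that density. Whether hairpins were covered more than this density gives was not tested.

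In the span of Rtl1, a peak lay over 6 of 15 hairpins: Mir673, Mir431, Mir127, Mir432, Mir3071 and Mir136. The microRNAs miR-127 and miR-136 are transcribed antisense to Rtl1 and are known to direct its cleavage. Peak chr12:109592877-109593496, 620 bp wide, covered 55.7% of the Mir127 hairpin, and miR-127-3p, at 109592888-109592909, lay wholly inside. The hairpins of Mir432, Mir3071 and Mir136 lay together in a peak of 597 bp, chr12:109594909-109595505. Mir433 was missed by 10 bp, and the group of Mir337, Mir3544, Mir540 and Mir665 was 722 to 983 bp from a peak.

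The cluster from Mir379 to Mir410, 34.7 kb long, held 17 peaks, 4.89 per 10 kb, and its hairpins were unevenly covered. From Mir379 to Mir485, 15 of 29 hairpins had a peak over them, and from Mir453 to Mir410, within Mirg, 1 of 9 (Mir154). The share of all microRNA genes of the genome was 18.4%. Peaks also covered more of the whole stretch between Rian and Mirg, 19.8% of bases, than of Mirg, 10.9%. Whether the hairpins differ beyond this was not tested. A peak of 1076 bp, chr12:109708700-109709775, stood over Mir379 at the cluster's start, followed by peaks of 211 bp over Mir411 and 909 bp over Mir299a and Mir299b. Of the 9 shared seeds, 2 had both hairpins under a peak (AUGUAAC and AUGUGGG), 2 had 1 hairpin under a peak and 5 had 0. Over all 61 microRNA genes of the domain the share under a peak was 41.0%. Whether hairpins with a shared seed differ from that share was not tested. The hairpins of Mir299a and Mir299b overlap on opposite strands, so they are 1 covered place. For GGUAGAC the Mir379 hairpin was under a peak and the Mir1193 hairpin was 1249 bp from any. The Mir376 group was without a peak for 1291 bp or more around each of its 3 hairpins.

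At the other end of this row, the peak over the Mirg start also held the hairpins of Mir668 and Mir485 and 60.6% of that of Mir134. miR-134 is known to limit dendritic spine size in rat hippocampal neurons. The mature miR-134-5p, at chr12:109734145-109734166, ended at the base before the peak began. Farther out, the 1 microRNA gene past Mirg, Mir1247, was 67.1% within the first peak of the row before Dio3.

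For the snoRNA genes, a class that includes guides of RNA modification, a peak lay over 5 of 19, or 26.3%, against 5.79% of 1330 in the genome. As with the microRNA genes, this difference is no result separate from the peak density of the domain, and was not tested beyond it. Within Rian 1 of 11 did, DQ267100, under a peak of 285 bp, chr12:109649515-109649799. Between Rian and Mirg 4 of 8 did: Gm23736, AF357341, Gm25856 and Gm22205, under peaks of 309, 972, 491 and 191 bp. The other snoRNA genes in Rian were 910 bp to 6.61 kb from a peak. Repeated snoRNA copies resemble each other, and how reads were placed among copies was not given in the sources used here.

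**Figure D4:**
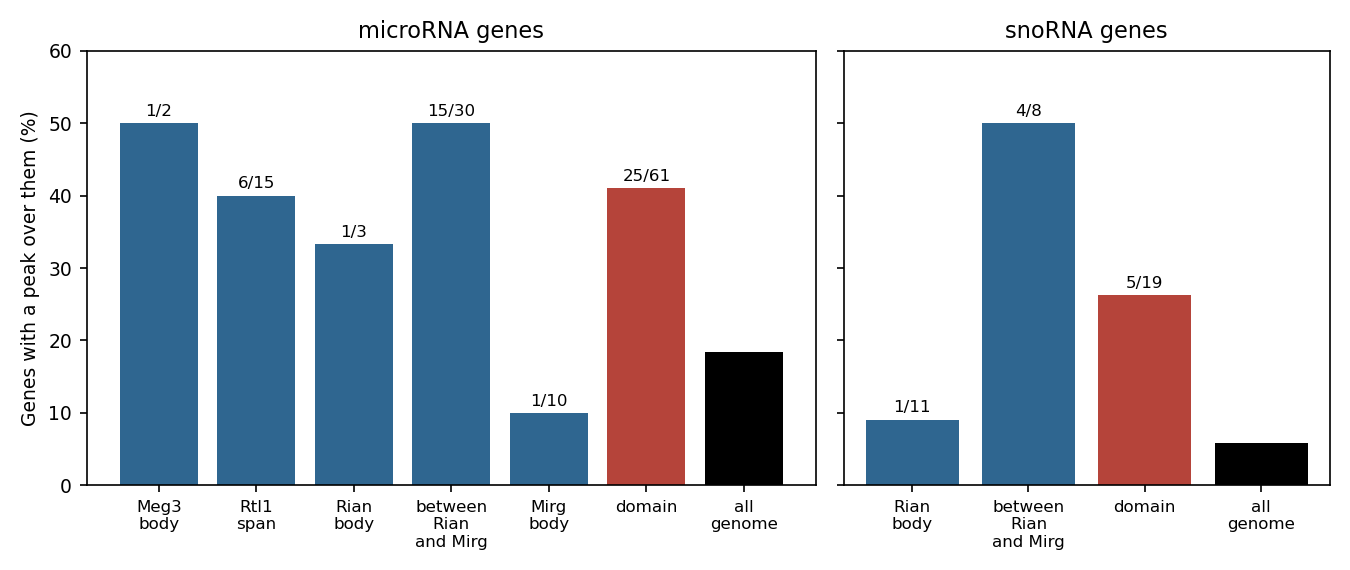
Percent of microRNA genes (left) and snoRNA genes (right) with a peak over them by place in the domain (blue), in the whole domain (red) and in the genome (black), with counts above the bars. Domain values are 41.0% and 26.3%, against 18.4% and 5.79% in the genome, in a domain that was chosen by its peak count. Mir1247, the 1 microRNA gene past Mirg, is in the domain bar only.

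The dense window, the 100 kb tile chr12:109500001-109600000 that holds the midpoint of Rtl1, had 43 peaks with a median width of 470 bp. Of these, by midpoint, 17 lay in Meg3 alone, 14 in Rtl1 alone, 4 in their overlap and 8 between Dlk1 and Meg3. The 8 include the peak over the Meg3 start. The tile is thus as much a Meg3 as an Rtl1 window. Among 26629 tiles of the genome, with a median of 6 peaks, 2 had more: 51 in a tile on chromosome 1 with Kif1a, a neuronal kinesin gene, and 45 in a tile on chromosome 9 with Mir101c. Tiles on chromosomes 17 and 6 also had 43. By bases in peaks, 22.0% of the tile, 15 tiles were higher, and with joined peaks, 29 here, 50 tiles were higher. The 10 tiles of the domain, in map order, held 19, 43, 34, 28, 8, 13, 4, 12, 17 and 12 peaks. The dense part thus covered 3 tiles that follow each other, and the other 7 held 4 to 19 peaks.

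**Figure D5:**
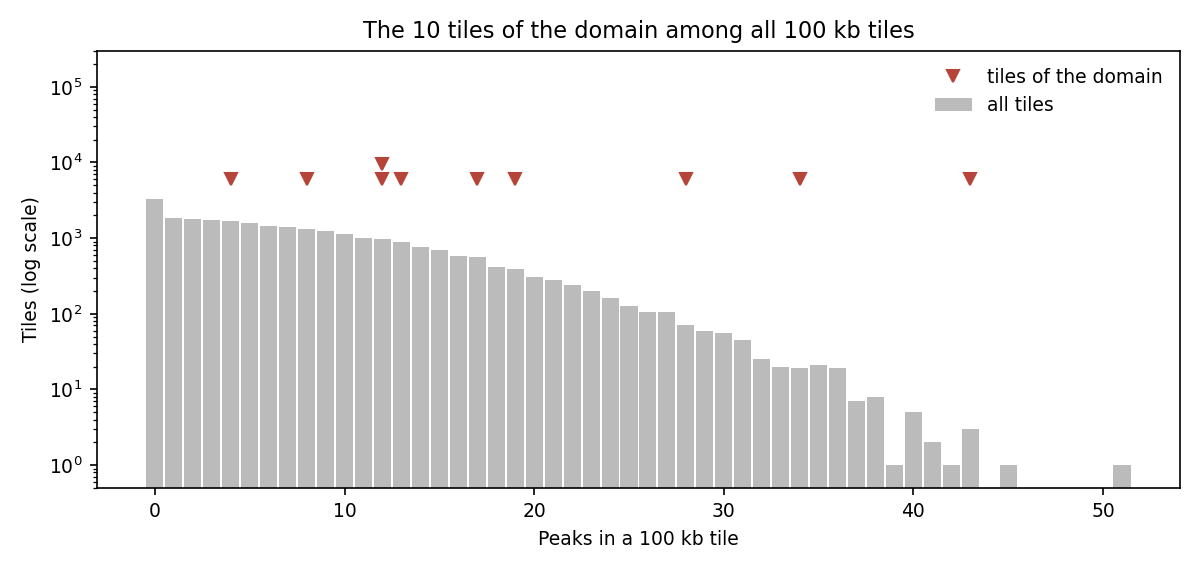
Number of 100 kb tiles of the genome (log axis) by peaks per tile, with triangles for the 10 tiles of the domain, whose height carries no value. The tile at Rtl1 sits at 43 peaks, with 2 tiles above it, and 3 tiles of the domain lie at 28 or more.

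The fixed tile cuts through the dense stretch. With windows of 100 kb slid in steps of 1 kb over all chromosomes, an alternative chosen after seeing the data, chr12:109535001-109635000 had 59 peaks and 29.2% of its bases in peaks, and no window of the genome held more. It runs from just before the Meg3 start through Rtl1 into Rian. The next separate windows had 52 peaks at Kif1a, 48 at Kdm4b and Ptprs, a neuronal receptor phosphatase gene, and 46 at Ntrk2, the receptor gene for brain-derived neurotrophic factor. That place was not kept under every count: with joined peaks the domain's highest window had 41, against 43 elsewhere, and with peaks of 500 bp or more 23, against 24 elsewhere.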

How the data were processed

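ATAC-seq peaks of 18 samples in 4 groups were analysed as the 1 deposited consensus list, where the authors give every peak its position, a name and a score. The deposited score was at its ceiling of 1000 for all but 3 peaks of the domain and ranked nothing. Peak names include MSPC, a program that combines calls of replicates; MultiQC, MACS2, deepTools and mm10 are listed in the submitters' processing notes. The aligner, read shift, duplicate handling, thresholds and the samples that entered the list were not given in the sources used here. They can bear on how finely open stretches are split into peaks.

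Gene ends were the outermost ends in a RefSeq table of GRCm38.p6 with 49997 genes; 17 without a chromosome and 348 on scaffolds were left out. Peaks were placed by midpoint, and ends were judged within 1000 bp. Background for start sites and motifs were 32817 RefSeq promoter windows. The members and lists were chosen with earlier results of these data known. Named were the members, some genes of the lists and some, not all, of the other genes of the domain with a peak. Also named were peaks at member ends, the widest peaks and those of the dense tile. Genes outside the domain that are on no list, such as Mir124-2hg, Kif1a, Mir101c, Kdm4b, Ptprs and Ntrk2, were named after their values were seen. The result of 1 gene list is not reported here. No test between groups was possible without values per sample. Counting was checked on simulated data. Python 3.11.15, numpy 2.4.6, pandas 2.3.3 and matplotlib 3.10.9 were used.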

Additional observations from a re-analysis of the deposited data

How the results depend on the processing

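With peaks of 500 bp or more only, the domain held 59 peaks, or 63.5 per Mb against 33.2 on the autosomes, and the Rtl1 tile held 18, with 18 tiles above it. Counting only a peak over the outermost end itself left 3 members, Meg3, Mirg and Dio3. Flanks of 10 or 100 kb gave 164 and 189 peaks, and joined peaks, chosen after seeing the data, gave 144. The share of peaks inside a member gene, 35.4%, ranged between 31.3% and 39.0%. Rian had no end peak with an end window of 500 bp, and Dio3 had none with peaks of 500 bp or more. No paired analysis was possible because the list has no value per sample. Depth is unknown, so a missing peak is not shown to be closed chromatin.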

Other observations

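Outside the domain, 25 of 27 other imprinted genes, listed with earlier results known, had a peak at an end, beside 70.4% of all protein-coding and 56% of all lncRNA genes. Their median was 2.14 peaks per 10 kb, beside 0.976 and 0.910 for protein-coding and lncRNA genes of 10 kb or more, and the list includes shorter genes. H19, a maternally expressed noncoding RNA, had no peak inside or at an end, and Igf2, the growth factor gene beside it, had 5 inside and none at an end. Of 8 other imprinted loci, measured from the outer ends of the named genes with 50 kb flanks and chosen after the values of the list were seen, Trappc9-Peg13 had more peaks per Mb (199) than the domain (192). Peg3-Usp29 had 162, Igf2r-Airn 151 and Gnas-Nespas 139, and the lowest, Ube3a-Mkrn3, had 37.1. The spans run between 166 kb and 3291 kb.

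All 9 listed relatives of Rtl1 and all 10 listed protein-coding neighbours outside the interval had a peak at an end, beside 70.4% of all protein-coding genes. Of 16 regulators of imprints and of the cluster, 11 had one, or 68.8%, near that background. Zfp57, which protects imprints in embryos, Dnmt1, the maintenance methyltransferase, Dnmt3a, Dppa3 and Aff3 had none at their outermost ends. Inside, however, Zfp57 held 1 peak, Dnmt1 5, Dnmt3a 21 and Aff3 80, and Dppa3 held 0.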
